A study of Mus musculus with 10 samples.

Results

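Stromal, endothelial and blood cells are told apart by a small set of marker proteins, most of them on the cell surface, and the genes for 10 of these markers were examined in the OP9 stromal cell line. They were taken by symbol from a table of 26888 genes, and all 10 were found: Cd44, Alcam, Ly6a, Thy1, Nt5e, Eng, Lepr, Nes, Cdh5 and Ptprc. The name surface marker covers all of them except Nes, whose product nestin is a filament inside the cell.

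OP9 is a stromal line from calvaria of (C57BL/6xC3H)F2-op/op mice, foetal by the labels but newborn by the text of the study, a strain without functional macrophage colony-stimulating factor, and every library came from this line. RNA was sequenced from 6 reaggregates, which were pellets of trypsinized cells held for 48 h at the surface of the medium on nitrocellulose filters (pore size 0.8 µm). Before RNA was taken they were broken up with collagenase and dispase, a step that the text of the study does not describe for flat cultures. Reaggregates 2, 4 and 6 were labelled as given IL-3 at 200 µg/µl, and reaggregates 1, 3 and 5 had no IL-3. The text of the study gives the same dose, though a far lower one for its reaggregates of embryo cells with OP9, so the amount is uncertain. The other group was 4 flat cultures grown beneath the medium, with no culture time in the labels. Flat cultures 2 and 4 carried the label of the de Bruijn lab, flat cultures 1 and 3 carried no lab label, and the reaggregates carried none either. OP9 is an established line, so neither group is primary tissue, and nothing in the labels says whether libraries of a group came from separate cultures, so p-values measure only the spread between these samples.

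The markers fall into several classes by what they do. CD44 and ALCAM are adhesion receptors; Sca-1 (Ly6a), Thy-1 and CD73 (Nt5e) are held in the membrane by a glycosylphosphatidylinositol (GPI) anchor; endoglin and the leptin receptor bind or present soluble ligands. VE-cadherin (Cdh5) builds the junctions of endothelium and CD45 (Ptprc) is carried by nucleated blood cells, so both are used to exclude those lineages when stromal cells are sorted, whereas the leptin receptor and nestin are known for marking perivascular stroma of the adult bone marrow.

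Expression was measured in RPM, the reads on a gene scaled to a library total of 1000000. The libraries held an estimated 7350000 to 9430000 reads on genes in the reaggregates and 8260000 to 8700000 in the flat cultures, so that 1 read was worth between 0.106 and 0.136 RPM, and 3 reads, taken as the least a library can show, between 0.318 and 0.408 RPM. This limit covers counting error only. Differences were tested with limma on log2(RPM + 0.5), a scale that understates changes of low genes, in those 16933 genes that exceeded 0.5 RPM in 1 or more libraries, and a call required a fold change of at least 2 with an adjusted p of at most 0.05. Of the markers, 7 passed this filter, while Thy1, Cdh5 and Ptprc did not. Nes passed only through flat cultures 2 and 4, and Nt5e only through flat culture 4, so a difference to these was bound to follow, and for these markers values are given in place of calls.

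Flat cultures with and without the lab label stood apart from each other. Taken as the root of the mean squared log2 difference over the tested genes, the distance between flat cultures of different label was 1.01 to 1.16, against 0.50 between flat cultures 2 and 4 and 0.73 between flat cultures 1 and 3. The reaggregates lay 0.69 to 1.17 from the unlabelled flat cultures and 1.11 to 1.34 from those of the de Bruijn lab. Reaggregates with consecutive numbers (1 and 2, 3 and 4, 5 and 6) lay only 0.28 to 0.29 apart, and other pairs of reaggregates 0.53 to 0.76. Each tested marker is therefore compared with all 4 flat cultures and with each pair of them. The text of the study names the Medvinsky group, beside that of de Bruijn, as a source of cells for flat cultures, though no label carries that name. Since the reaggregates carried no lab label, culture form, with the enzyme step that went with it, and cell source cannot be told apart.

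Ly6a and Cd44 were the abundant markers. Per kb of exon, Ly6a averaged 223 RPM in the reaggregates and 1004 RPM in the flat cultures, and Cd44 averaged 69.3 and 86.9 RPM. The levels of Ly6a stood above those of Cd44 in every reaggregate and in flat cultures 1 and 3, but below them in flat cultures 2 and 4, where Ly6a was at 16.4 and 18.7 RPM per kb and Cd44 at 105 and 90.2. Among the tested genes with a known length, 1.68% had a higher level per kb than Ly6a in the reaggregates and 6.12% a higher level than Cd44. Eng came next at 0.690 and 0.694 RPM per kb in reaggregates and flat cultures, below 81.8% and 81.7% of the genes. Below Eng, Alcam stood at 0.465 RPM per kb in the flat cultures and 0.0749 in the reaggregates. In the reaggregates the ranges of Alcam, Lepr, Thy1, Nt5e and Nes overlapped, so that no order among these 5 could be read there.

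**Figure D1:**
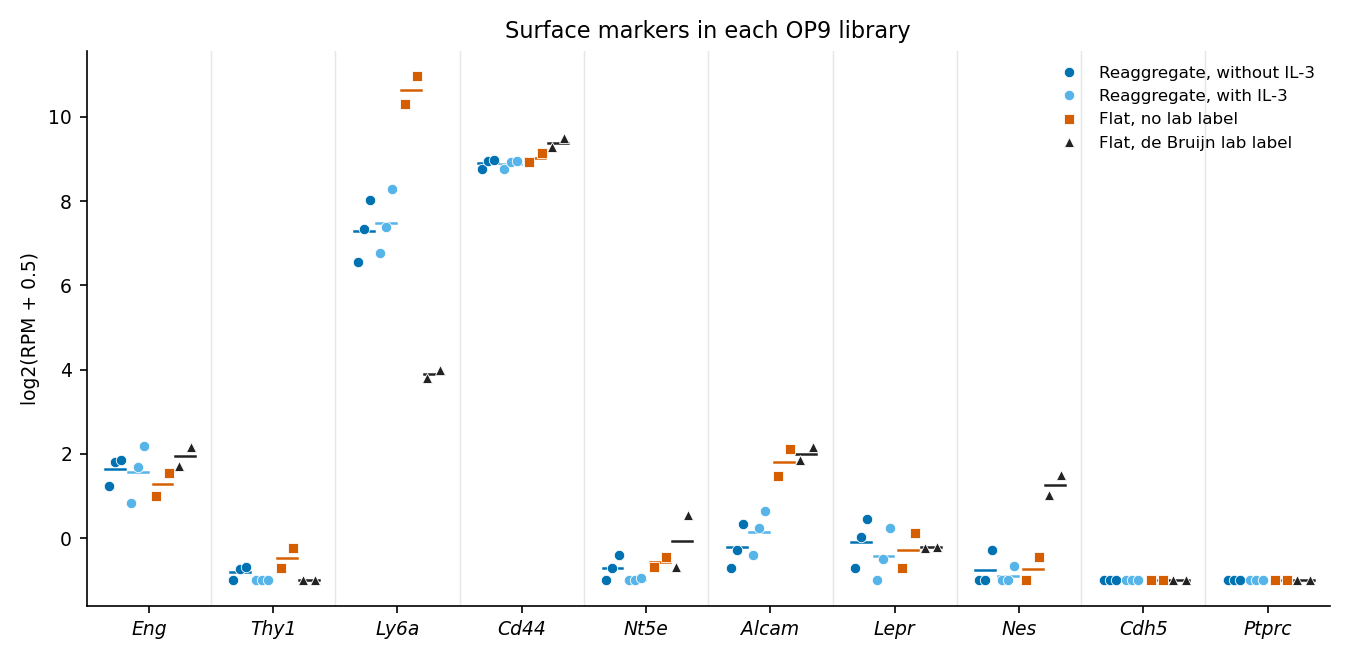
Level of each of the 10 markers in the 10 libraries as log2(RPM + 0.5), with 1 point per library and a bar at the mean of each set. Ly6a separates the flat cultures by lab label, from 13.4 and 15.3 RPM to 1260 and 2000 RPM with the reaggregates between them, Alcam is lower in all reaggregates than in all flat cultures, and Ptprc is at 0 throughout.

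CD44, the main receptor for hyaluronan, is encoded at chr2:102651298-102741822 on the minus strand (mouse build NCBIM37, as for all positions given). Cd44 ranged from 430 to 505 RPM in the reaggregates, with a median of 492, and stood at 564, 717, 482 and 618 RPM in flat cultures 1 to 4. Flat culture 3 lay within the range of the reaggregates and the other flat cultures lay above it, so the groups overlapped. The reaggregates averaged 475 ± 33.9 RPM (SD, n = 6) and the flat cultures 595 ± 98.6 RPM (n = 4). The difference of −0.31 on the log2 scale (SE 0.14, limma adjusted p = 0.117) did not reach a call, whereas the exact permutation test of Cd44 alone, two-sided and not adjusted, gave p = 0.0238. Both tests treated the 6 reaggregates as separate although consecutive ones lay close together. The p-values of either test, here and for the other genes, can therefore be too small. Against the de Bruijn flat cultures, both of which were above all reaggregates, the difference was −0.49 (SE 0.13, adjusted p = 0.0137), less than the fold change required, and against the unlabelled ones it was −0.14 (SE 0.13, adjusted p = 0.499).

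ALCAM (CD166) is an adhesion molecule of the immunoglobulin superfamily that binds itself and CD6 on lymphocytes, and its gene lies at chr16:52249109-52454187 on the minus strand. Alcam ranged from 0.109 to 1.06 RPM in the reaggregates, with a median of 0.503, and stood at 2.30, 3.10, 3.83 and 4.01 RPM in flat cultures 1 to 4. All 6 reaggregates were below all 4 flat cultures, and 3 of the reaggregates were above the level of 3 reads. In RPM the mean of the flat cultures was 6.20 times that of the reaggregates. The fitted difference was −1.93 (SE 0.29, limma adjusted p = 0.00103), and the exact two-sided permutation test gave p = 0.00476, the smallest that 210 splits of 6 and 4 can give. In bulk RNA, fewer cells that express a gene and less RNA per cell cannot be told apart. Alcam was called lower against the de Bruijn flat cultures (−2.04, SE 0.36) and against the unlabelled ones (−1.83, SE 0.37), and its call was kept in all 23 alternative settings, with differences from −2.63 to −1.51 and adjusted p from 0.00063 to 0.0332. It ranked number 263 from the lowest of the 16933 differences.

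Alcam was the only marker called between reaggregates and all flat cultures, 1 of the 7 tested. Over all tested genes 1239 were called higher in the reaggregates, 7.32%, and 1106 lower, 6.53%. It was also the only tested marker whose groups did not overlap, which held for 3242 genes or 19.1% of all tested genes in either direction. These counts moved with single flat cultures: 2121 genes were called higher without flat culture 3, and 766 without flat culture 4. With the 3 pairs of consecutive reaggregates averaged, 312 genes were called higher and 429 lower, and Alcam was among the latter.

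Sca-1, the product of Ly6a, is used to sort haematopoietic stem cells and mesenchymal progenitors of the mouse, and its gene lies at chr15:74825308-74828064 on the minus strand. In reaggregates 1 to 6 Ly6a was at 161, 167, 92.9, 109, 258 and 309 RPM. In flat cultures 1 to 4 it was at 2000, 13.4, 1260 and 15.3 RPM. The unlabelled flat cultures were above every reaggregate, the de Bruijn flat cultures were below every reaggregate, and consecutive reaggregates resembled each other. The unlabelled flat cultures averaged 8.92 times the mean of the reaggregates, and the reaggregates averaged 12.7 times the mean of the de Bruijn flat cultures.

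Because the flat cultures lay on both sides, the comparison of Ly6a with all 4 of them depended on the scale. Mean RPM was 183 ± 84.7 in the reaggregates (SD, n = 6) and 822 ± 980 in the flat cultures (n = 4), while the fitted difference on the log2 scale was 0.13 with an SE of 1.32 (limma adjusted p = 0.947, exact permutation p = 0.914). The sign of that value changed with quantile normalization (−0.026), with the replicate number as a block (−0.25), without reaggregate 6 (−0.050) and without flat culture 2 (−1.03) or 4 (−0.97). Against the de Bruijn flat cultures Ly6a was called higher in reaggregates (3.50, SE 0.41, limma adjusted p = 0.000134), and against the unlabelled flat cultures it was called lower (−3.24, SE 0.45, adjusted p = 0.0021), where its difference was number 9 from the lowest of 16933. Over the 23 alternatives its adjusted p ran from 0.000134 to 0.999. Both of these comparisons used the same 6 reaggregates.

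The background of calls differed between these comparisons. Against the de Bruijn flat cultures 15.2% of genes were called higher and 10.5% lower, and of the markers Ly6a was called higher and Alcam lower, Nes being left aside. Against the unlabelled flat cultures 3.7% were called higher and 6.17% lower, and of the markers none was called higher and 2 (Alcam and Ly6a) were called lower.

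**Figure D2:**
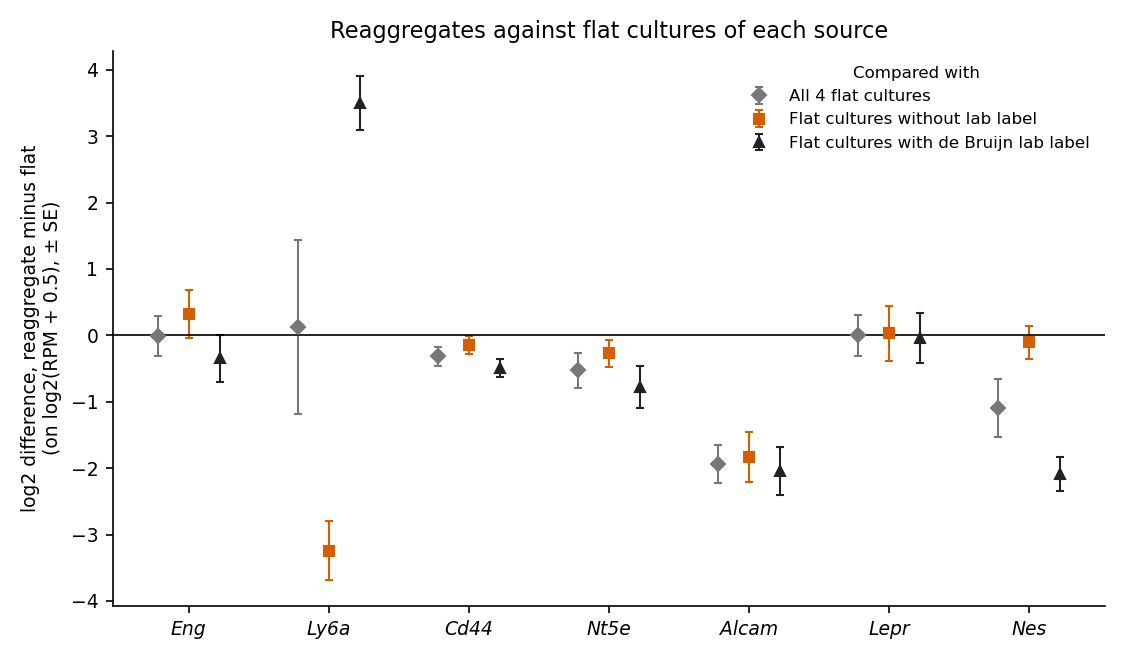
Difference between reaggregates and flat cultures for the 7 tested markers on the log2(RPM + 0.5) scale, with the SE of the limma fit as bars, against all 4 flat cultures, those without a lab label and those with the de Bruijn label. Alcam is lower against each set, whereas Ly6a is 3.50 against one pair and −3.24 against the other.

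Between the flat cultures themselves, both de Bruijn libraries were below both unlabelled ones in Ly6a, with a difference of −6.74 on the log2 scale (SE 0.33, limma adjusted p = 0.0049), and the unlabelled mean was 114 times the de Bruijn mean. This was number 10 from the lowest of the 16933 differences. In this comparison 309 genes, 1.82%, were called higher in the de Bruijn pair and 656, 3.87%, lower, and of the markers, Nes aside, only Ly6a was called. With 2 libraries a side the calls needed all 4 of them, since no gene was called when any flat culture was left out, although the difference of Ly6a stayed between −7.08 and −6.41 and its adjusted p between 0.0516 and 0.157 in those fits. Over all 8 alternatives of this comparison the adjusted p of Ly6a ran from 0.00033 to 0.157.

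Relatives of Ly6a in the Ly6 cluster of chromosome 15 showed the same order of samples in part. Of 17 listed Ly6 family genes and GPI-anchored relatives, 12 were tested, 0 were called higher and 6 lower in the de Bruijn flat cultures, beside 1.82% and 3.87% of all genes: Ly6a, Ly6c1, Ly6c2, Ly6e and, named after their values were seen, Ly6f and Ly6i. The call of Ly6c2 was also lost with no filter on low values. The median difference over the 12, Ly6a itself included, was −2.06, against −0.17 over all genes. Among the 12, Ly6d passed the filter only through flat culture 3 and Ly6g only through flat culture 1. Lower values of both in the de Bruijn pair were bound to follow, so the median is a description only. Ly6c1, at chr15:74875447-74879260, stood at 239 and 201 RPM in flat cultures 1 and 3 and at 1.59 and 0.522 RPM in flat cultures 2 and 4, with 10.6 to 55.4 RPM in the reaggregates. Ly6e, at chr15:74785481-74790335, stood at 483 and 555 RPM against 19.3 and 14.2 RPM, and its reaggregates, at 294 to 830 RPM, lay around the unlabelled flat cultures instead of between the pairs. Against all flat cultures none of the 12 was called higher and 1 was called lower, Lypd1 (−1.86, SE 0.23); 4 were called higher and 1 lower against the de Bruijn pair (15.2% and 10.5% of all genes), and 0 and 6 against the unlabelled pair (3.7% and 6.17%). Ly6 genes resemble each other in sequence: 4.42% of the windows of 50 bases in Ly6a transcripts also occurred in Ly6c2 or Ly6i, and 31.9% of those in Ly6c1 occurred in Ly6c2, whereas Ly6e shared none. Of the windows of Ly6i, which was at most 3.39 RPM beside up to 2000 RPM of Ly6a, 3.76% occurred in Ly6a or Ly6g. Lypd1, which lies on chromosome 1 outside the cluster, shared 16.7% of its windows with other genes, which leaves its level uncertain. Ly6f shared no window, but its values of 0.00679 to 0.0665 RPM in reaggregates 3 and 4 and flat cultures 2 and 4, less than 1 read each, were the same as those of Ly6g. Levels of Ly6c1, Ly6c2, Ly6f and Ly6i, which are 4 of the 6 called, are thus uncertain, and a small part of the Ly6a reads could have been divided with its relatives.

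**Figure D3:**
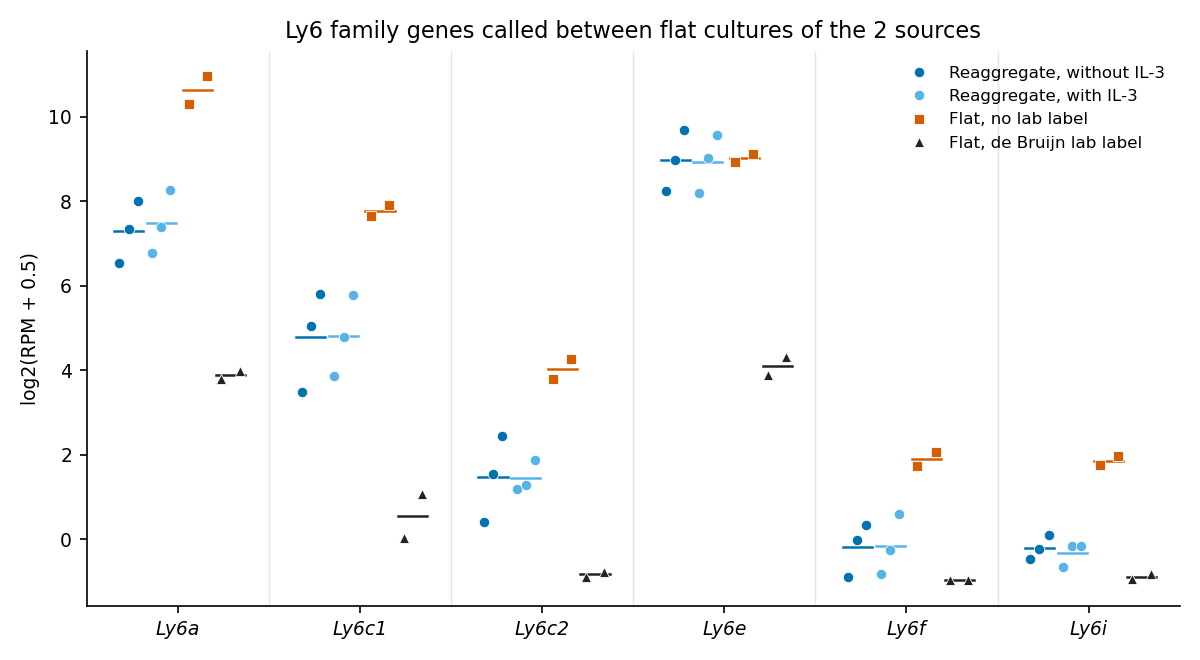
Levels of the 6 Ly6 family genes called between flat cultures with and without the de Bruijn lab label, as log2(RPM + 0.5), with 1 point per library and a bar at the mean of each set. For Ly6a and Ly6c1 the reaggregates lie between the unlabelled and the de Bruijn flat cultures, and for Ly6e they lie around the unlabelled ones.

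The genes with a pattern most like that of Ly6a over the 10 libraries, among 11660 genes with a mean of at least 5 RPM, were Apln, Tubb3 and 1600021P15Rik, with Pearson r of 0.989, 0.988 and 0.984 on log2(RPM + 0.5). Within the 6 reaggregates alone the r values were 0.874, 0.952 and 0.828. The flat cultures form separate pairs for Ly6a, so the r over all libraries rests mainly on the distance between these pairs. Apln, which encodes the peptide apelin, stood at 68.4 and 65.6 RPM in flat cultures 1 and 3, at 7.87 and 8.75 RPM in flat cultures 2 and 4, and at 17.5 to 34.7 RPM in the reaggregates. For Cd44 the most alike were AL627328.2, AC151602.3 and AC102483.3, with r of 0.959, 0.959 and 0.958, and 0.876, 0.907 and 0.986 within the reaggregates.

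The other GPI-anchored markers were close to or under the level of 3 reads. Thy1, at chr9:43851467-43856662, encodes Thy-1, a marker of T cells, neurons and some fibroblasts. It stood at 0.128 RPM in reaggregate 1, 0.108 RPM in reaggregate 5, 0.115 RPM in flat culture 1 and 0.359 RPM in flat culture 3, and was listed at 0 in the other libraries. No library was above 3 reads, so that a difference in Thy1 was not detectable at this depth (exact permutation p = 0.305, two-sided). CD73, the product of Nt5e at chr9:88222447-88266927, is the ectoenzyme that converts AMP to adenosine. Nt5e ranged from 0 to 0.257 RPM in the reaggregates, with a median of 0.0107, and stood at 0.230, 0.119, 0.12 and 0.972 RPM in flat cultures 1 to 4. Flat culture 4 was the only library above 3 reads. As a description, the difference was −0.52 (SE 0.26) against all flat cultures, −0.78 (SE 0.32) against the de Bruijn pair, −0.27 (SE 0.20) against the unlabelled pair and −0.23 without flat culture 4.

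Endoglin is a co-receptor for ligands of the TGF-β superfamily on endothelium and stroma, and Eng lies at chr2:32502115-32538189 on the plus strand. Eng ranged from 1.28 to 4.03 RPM in the reaggregates, with a median of 2.86, and stood at 1.51, 4.02, 2.42 and 2.79 RPM in flat cultures 1 to 4. All 10 libraries were above 3 reads and the groups covered almost the same range. The group means were 2.67 ± 0.977 RPM (SD, n = 6) and 2.69 ± 1.04 RPM (n = 4), and the difference was −0.01 (SE 0.31, limma adjusted p = 0.983, exact permutation p = 0.962). It was −0.35 (SE 0.35) against the de Bruijn pair and 0.32 (SE 0.36) against the unlabelled pair, neither a call. Its ends overlap those of Ak1 by 211 bp on the same strand and those of Fpgs by 61 bp on the other strand. Ak1 averaged 275 RPM in the reaggregates and 296 RPM in the flat cultures. Of the windows of 50 bases in protein-coding transcripts of Eng, 0.32% also occurred in Fpgs and none in Ak1. Whether reads at the ends of Eng were divided with these genes was not tested.

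The leptin receptor gene, Lepr, lies at chr4:101390009-101487957 on the plus strand. Lepr ranged from 0 to 0.868 RPM in the reaggregates, with a median of 0.363, and stood at 0.115, 0.358, 0.599 and 0.364 RPM in flat cultures 1 to 4. Above 3 reads were 3 of the 6 reaggregates and, of the flat cultures, only number 3, while flat cultures 2 and 4 were at 3 reads. The difference was 0.00 (SE 0.31, limma adjusted p = 0.9998, exact permutation p = 1), and its sign is not to be read. Against the de Bruijn pair it was −0.033 (SE 0.38) and against the unlabelled pair 0.033 (SE 0.41). Leprot, the neighbouring gene on the same strand that encodes an endosomal protein, was at 89.7 to 159 RPM in the reaggregates and 87.1 to 141 RPM in the flat cultures.

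Nestin is an intermediate filament protein of neural progenitors that also marks some perivascular cells, and Nes lies at chr3:87775000-87784373 on the plus strand. Nes was listed at 0 in reaggregates 1, 4, 5 and 6 and stood at 0.136 and 0.327 RPM in reaggregates 2 and 3. In flat cultures 1 to 4 it was at 0, 1.55, 0.240 and 2.31 RPM. Only the de Bruijn flat cultures were above 3 reads, and the unlabelled ones lay within the range of the reaggregates. No other library was above 0.5 RPM, so Nes was in the tested set through these libraries alone, and its differences are a description. Between the flat cultures the difference was 1.98 (SE 0.34), and 1.70 to 2.26 without any 1 of the libraries. The reaggregates differed from the de Bruijn pair by −2.08 (SE 0.26) and from the unlabelled pair by −0.10 (SE 0.25). Against all flat cultures the difference was −1.09 (SE 0.43), and −1.52 to −0.69 when a library was left out.

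The markers that exclude other lineages were at or near 0. Cdh5, at chr8:106625525-106668402, was at most 0.0018 RPM in the reaggregates and 0.00702 RPM in the flat cultures, both fractions of a read (exact permutation p = 0.0905). Ptprc, at chr1:139959438-140071882, was listed at 0 in all 10 libraries, which at this depth allows up to 0.318 to 0.408 RPM. Other endothelial and blood markers were read beside them. Of 18 endothelial markers 15 were analysed here, and 9 of these were at or under 3 reads in every library, Kdr, Tek and Tie1 among them. The sum of all 15 was 4.03 to 9.39 RPM in the reaggregates and 2.52 to 4.45 RPM in the flat cultures. Per kb of exon Plvap had the highest mean in both groups, at 0.217 to 0.779 and 0.0591 to 0.423 RPM. The highest gene was instead Erg in reaggregate 3, Flt1 in flat culture 1 and Pecam1 in flat culture 2. Of 20 blood markers analysed, 5 were listed at 0 in all libraries, Cd52, Emr1, Gata1 and Cd3e among them. With these included, 10 were at or under 3 reads in every library. The sum of the 20 was 17.2 to 31.8 RPM in the reaggregates and 10.4 to 30.3 RPM in the flat cultures. Per kb Cd68 had the highest mean of these in both groups, at 2.14 to 5.74 and 1.28 to 6.55 RPM, while the highest gene was Itga2b in reaggregates 3 and 4 and Spn in flat culture 1. Not scaled by length, Itga2b was the most abundant, at 9.14 to 23 RPM in the reaggregates and 0.955 to 11.8 RPM in the flat cultures. It was above 3 reads in every library. Of 8 neural and glial markers analysed, Sox10 and Dcx were listed at 0 in all libraries, and with these included 3 were at or under 3 reads in every library. Per kb Tubb3 had the highest mean in both groups, but S100b was above it in reaggregates 5 and 6 and flat cultures 2 and 4. Tubb3 followed the lab label of the flat cultures as Ly6a did, at 95.9 and 69.6 RPM in the unlabelled pair and 7.41 and 6.08 RPM in the de Bruijn pair. In these libraries of a stromal line, then, Cdh5 and Ptprc were at or near 0, but so were some markers of stroma: Thy1 was above 3 reads in no library, Nt5e in 1 and Nes in 2 of the 10.

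IL-3 was compared within the reaggregates, where 0 of 16933 genes were called by limma, or 0%, and 68 had a p of 0.05 or less before adjustment. With consecutive reaggregates as a block 565 genes reached that level and again 0 were called. None of the 7 tested markers was called. Ly6a averaged 195 RPM with IL-3 and 171 RPM without, Cd44 averaged 471 and 478 RPM, and Eng 2.68 and 2.66 RPM (n = 3 each). In each consecutive pair Ly6a was higher in the library with IL-3, at 161 and 167, 92.9 and 109, and 258 and 309 RPM. With these pairs as a block the difference was 0.18 (SE 0.06, limma adjusted p = 0.982), not a call.

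Genes that work with the markers were counted between reaggregates and all flat cultures, where the median over all genes was 0.04 and the shares called, as above, were 7.32% higher and 6.53% lower. Counts such as 1 of 12, 1 of 9 or 0 of 4 are near these shares. Of 20 other mesenchymal markers 19 were tested, 7 were called higher and 0 lower (median 0.24), with Enpp1 (3.90, SE 0.49), Anpep (2.29, SE 0.43), Pdgfrb (1.74, SE 0.26) and Pdgfra (1.58, SE 0.19) the largest differences among those of at least 5 RPM. Per kb of exon Cd63, a tetraspanin, was the highest of the 20 in all 10 libraries, at 439 to 599 RPM in the reaggregates and 272 to 524 RPM in the flat cultures. Around the adhesion receptors, 4 of 11 tested junction and adhesion partners were called higher (Cdh2, Cdh11, Ctnnb1 and Jup; median 0.35), and of 12 genes for hyaluronan enzymes, receptors and linkers of CD44 Hyal1 was called higher and Hmmr lower (−2.56, SE 0.34; median 0.15). Around endoglin 3 of 11 were called higher (Tgfb3, Acvr1 and Tgfb2; median 0.75), around the leptin receptor 3 of 9 (Ptpn1, Stat3 and Irs2; median 0.75), and in the adenosine pathway of CD73 2 of 10 (Enpp1 and Enpp3; median −0.04). Among filament partners of nestin both rows of Synm were called, of 5 tested (median 0.30), and of 23 rows for GPI anchor synthesis 4 (Pigv, Pgap3, Pigt and Pigo; median 0.12). Of the endothelial, blood and neural markers 1 of 6 (Vwf, at 0.762 to 5.64 RPM in the reaggregates and 0.119 to 0.460 RPM in the flat cultures), 1 of 9 (Itga2b) and 0 of 4 were called higher, with medians of 0.25, −0.20 and 0.03, and 0 were called lower in any of these 3 lists.

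Many of these calls were lost with fewer samples or with 1 pair of flat cultures, and some with all samples kept. With the replicate number as a block, and without flat culture 1 or 3, 2 mesenchymal markers were called lower, beside 7, 6 and 7 called higher. Over all genes those fits called 1885, 1153 and 2121 higher and 1154, 1149 and 1522 lower. With no filter on low values the calls of Itga2b, Enpp3, Irs2 and Cdh2 were lost, with quantile normalization that of Tgfb2, and with a pseudocount of 1 those of Pigo and the second row of Synm. Vwf and that row of Synm had passed the filter only through the reaggregates, as had 1 of the 7 mesenchymal markers, Fap, so these calls support nothing. Fap is included among the mesenchymal markers called higher in each count of this paragraph. With consecutive reaggregates averaged, a fit in which 312 of all genes were called higher, the counts called higher were 4 mesenchymal markers, 1 adhesion partner, 1 gene around endoglin and 1 around the leptin receptor, 1 of the adenosine pathway, 1 row of Synm, and none for hyaluronan, GPI anchor synthesis, endothelium and blood. Against the de Bruijn pair, where 15.2% of genes were called higher and 10.5% lower, the list counts were 8 higher and 3 lower of 19 mesenchymal markers, 5 higher of 11 adhesion partners, and 3 higher and 2 lower of 12 hyaluronan genes. In that comparison 5 of 11 around endoglin, 3 of 9 around the leptin receptor, 3 of 10 adenosine genes, 2 of 5 filament rows and 5 of 23 GPI rows were called higher and none lower. Against the unlabelled pair, where 3.7% of genes were called higher and 6.17% lower, 6 mesenchymal markers and 3 adhesion partners were called higher, and 1 hyaluronan gene was called higher and 2 lower. There 2 genes around endoglin, 2 around the leptin receptor, 1 adenosine gene, 1 filament row and none of the 23 GPI rows were called higher, and none of these was called lower. Endothelial, blood and neural markers gave 1 of 6, 1 of 9 and 2 of 4 higher against the de Bruijn pair, and 0 higher with 0, 3 and 1 lower against the unlabelled pair. The endothelial call was that of Vwf, and the 2 filament calls against the de Bruijn pair were both rows of Synm. Of these, Vwf and the second row of Synm again support nothing. Pgap3 and Stat3 lost their calls with the averaged reaggregates and against the unlabelled pair. Without flat culture 4 the calls of Itga2b (1.77), Acvr1 (0.89), Tgfb2 (0.79), Enpp3 (1.45), Cdh2 (limma adjusted p = 0.0936), Pigo (0.78), Pigt (0.84) and Pigv (0.998) were lost. Those of Tgfb2 (0.97) and Irs2 (1.14) were lost without flat culture 1, and those of Enpp3 (1.62) and Cdh2 (2.92) without flat culture 2. Leaving out a reaggregate ended the calls of Irs2 (replicate 1, 3 or 4; 1.34 to 1.45), Cdh2 (replicate 4; 3.90) and Pigo (replicate 2; 0.99).

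Several mesenchymal markers divided the flat cultures by lab label as Ly6a and Nes did. Cd34, a sialomucin of progenitor cells, was at 72.6 and 26.5 RPM in flat cultures 1 and 3, was listed at 0 in flat cultures 2 and 4, and was at 8.15 to 54.9 RPM in the reaggregates. Cspg4, the NG2 proteoglycan of pericytes, was at 164 and 88.1 RPM in flat cultures 2 and 4 and at 0 and 0.599 RPM in flat cultures 1 and 3, with 0 to 0.817 RPM in the reaggregates. For both genes the reaggregates lay on the side of the unlabelled pair, and for each their range overlapped that pair. Nes showed the same order, but it passed the filter only through the de Bruijn pair. Icam1 was at 4.87 to 13.6 RPM in reaggregates, 7.83 and 12.9 in the unlabelled pair and 60.7 and 40.5 in the de Bruijn pair. Cd82 was at 90.1 and 68.8 RPM in the unlabelled pair, 24.8 and 19 in the de Bruijn pair and 26.7 to 72 in reaggregates. Its lowest reaggregates, 3 and 4 at 26.7 and 30.2 RPM, lay nearer the de Bruijn pair. Of the 19 tested, 2 were called higher (Cspg4 and Icam1) and 2 lower (Cd34 and Cd82) in the de Bruijn pair, with a median of 0.17 against −0.17 over all genes, of which 1.82% were called higher and 3.87% lower. Each of these 4 calls was lost in 5 of the 8 alternatives, with no filter on low values and without any 1 of the 4 libraries. Their part in the differences of Ly6a and Nes was not tested.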

How the data were processed

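Per the submitters' processing notes and the study's methods, the authors aligned single-end reads with TopHat 1.2.0 to NCBIM37 (mm9), used GeneProf to assign the alignments to Ensembl genes, shared reads with several matches out over the genes matched, and deposited RPM values, 1 per gene and library. The table also held the authors' fold changes and adjusted p-values from DESeq, which were not used. The markers and gene lists were chosen with earlier results of these data known.

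In each library the RPM value that occurred most often, 0 aside, was taken to be 1 read, which gave the depth, and a value counted as above 3 reads if it exceeded them by over 0.05 reads, since values are rounded. Between 69.4% and 72.0% of values under 10 RPM were whole reads, to within 0.05 reads or 1%, so no count test was run. Log2(RPM + 0.5) was fitted with limma 3.58.1 in R 4.3.3, with empirical Bayes moderation, a mean-variance trend and Benjamini-Hochberg adjustment over 16933 genes. Single markers were also tested by exact permutation over 210 splits. These splits, like the main limma fits, treat consecutive reaggregates as separate. All 10 markers were named in full. From other lists, up to 4 genes per direction were named by absolute difference among those with a group mean of at least 5 RPM, with smaller counts named in full, and for Ly6a and Cd44 the 3 genes with the highest r. Coordinates, exon lengths and transcripts came from GENCODE vM1 (NCBIM37), a later release than the authors'; windows of 50 bases were compared among protein-coding transcripts. Alternatives included other pseudocounts, filters, scalings, blocks and subsets of libraries. Python 3.11.15 and matplotlib 3.10.9 were used for the figures.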

Additional observations from a re-analysis of the deposited data

Results flagged for a closer look

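Among the 18 sets of markers by culture form in which libraries differed, 3 held a library far from the others, where chance alone gives about 0.9. Nt5e stood at 0.972 RPM in flat culture 4, above 0.230 RPM at most in the other flat cultures. Cdh5 stood at 0.0018 RPM in reaggregate 4, the other reaggregates being at 0, and at 0.00702 RPM in flat culture 2. Both Cdh5 values are fractions of a read and can show no difference at this depth.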

How the results depend on the processing

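The direction and call of Alcam between reaggregates and flat cultures were kept in all 23 alternatives, and so was the direction of Cd44. Nt5e and Nes had no value with the filter of 4 libraries. The genes called higher in the reaggregates numbered 1239 and those called lower 1106. Against the de Bruijn flat cultures only, these counts were 2579 and 1775, and 1 marker was called higher and 2 lower; against the unlabelled ones 627 genes were called higher and 1044 lower, and 2 markers were called lower. With consecutive reaggregates averaged they were 312 and 429, with the reaggregates given IL-3 only 277 and 360, and with those without IL-3 only 345 and 474, all fits with fewer samples. Leaving out 1 library gave 766 to 2121 genes called higher, 815 to 1522 called lower and 1 to 2 markers called lower, the added marker being Nes, which passed the filter only through flat cultures 2 and 4, as for the other counts that include it. Of the 24 list genes of at least 5 RPM named for a call between reaggregates and all flat cultures, 9 kept it in every alternative and 4 lost it only with averaged or fewer reaggregates. Below 5 RPM, Vwf lost it in 3 and the second row of Synm in 5 of the 23, the fit with averaged reaggregates and that against the unlabelled pair among them.

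Same-numbered reaggregates and flat cultures carried the same number, and the labels name no other link. The correlations of their deviations from the group means were −0.04, −0.21, 0.07 and 0.15, and only replicate 4 correlated best with its own number. The flat deviations hold the gap between lab labels, so whether same-numbered libraries shared a batch cannot be read from them. The replicate block gave 1885 genes higher and 1154 lower, called the same number of markers, 1 lower, and gave differences of −0.25 for Ly6a and −0.11 for Lepr.

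Uncalled differences near 0 changed sign. Eng was 0.32 against the unlabelled flat cultures, 0.023 in reaggregates without IL-3, and −0.21 to 0.18 when a library was left out. Ly6a was −0.026 with quantile normalization, −3.24 (called) against the unlabelled flat cultures, and −1.03 to 1.36 when a library was left out. Lepr was −0.15 with a pseudocount of 0.1, −0.094 with quantile normalization, −0.0028 with median-ratio scaling, −0.033 against the de Bruijn flat cultures, −0.17 in reaggregates with IL-3, and −0.15 to 0.15 when a library was left out. The cause was not tested.

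Between the flat cultures of each label, 965 genes and 2 markers were called, 204 genes and 1 marker with no filter on low values, 1 marker with a pseudocount of 0.1, and 0 genes and 0 markers when any library was left out, which leaves 1 library on a side that is assumed to vary like the others. In those fits Nt5e ran from −0.12 to 1.13, Alcam from −0.10 to 0.53 and Lepr from −0.35 to 0.49. Depth limits Thy1, Nt5e, Lepr, Nes, Cdh5 and Ptprc, whose values lie within a few reads of 0 in most libraries.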
